A study of Mus musculus with 8 samples.

Results

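The 10 genes described here encode proteoglycans, enzymes that make hyaluronan and a receptor that binds it: Vcan, Dcn, Bgn, Lum, Hspg2, Sdc1, Sdc4, Has1, Has2 and Cd44. They were chosen by name, with earlier results of these data known. Each was read from the brightest of its RefSeq probes that was well above background on at least 4 of 8 arrays. All 10 had such a probe, among 15152 genes that did, and all 10 chosen probes were well above background on all 8 arrays with no saturated spot. RNA came from the ventricles of male C57BL\6 mice 24 hours after surgery, from 4 mice with permanent ligation of a coronary artery (MI mice) and 4 sham-operated mice. Each mouse had an array of its own. Both groups underwent an operation, and no age is given in the labels. Whole ventricles were taken, so infarcted and spared muscle cannot be told apart, and fewer cells of a type cannot be told apart from less RNA per cell.

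Proteoglycans are core proteins that carry long sulfated sugar chains. Versican (Vcan) fills provisional matrix and binds hyaluronan, the small leucine-rich proteoglycans decorin (Dcn), biglycan (Bgn) and lumican (Lum) bind collagen fibrils, perlecan (Hspg2) belongs to basement membranes, and the syndecans Sdc1 and Sdc4 sit in the cell membrane and bind growth factors. Hyaluronan is a sugar chain without a core protein, which Has1 and Has2 extrude through the cell membrane and Cd44 binds at the surface of leukocytes and many other cells. Hyaluronan and versican are known to accumulate in injured heart muscle.

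Values are spike-in normalized signals in arbitrary units, that is, processed signals scaled so that RNA standards added in equal amounts read the same on each array. They can be compared between mice for 1 probe but not between probes. Fold changes are differences of mean log2 signals, MI minus sham, with the standard error (SE) of the fit over all probes, and a gene was called where the limma p-value, adjusted by the Benjamini-Hochberg method over 34038 probes, was under 0.05. With 4 mice against 4, the exact two-sided permutation test of a single gene has 70 splits and cannot go below 0.0286.

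Of the 10 genes, 3 were called higher in MI mice (Cd44, Has1 and Sdc4), 0 were called lower and 7 were not called. Over all probes tested, 4.73% were called higher and 0.729% lower. All 3 called genes were more than 2-fold higher with the spike-in values, and fewer genes were under other normalizations, as given below. Of all probes 3.86% were called more than 2-fold higher and 0.596% more than 2-fold lower. Means were higher in MI mice for 7 genes and lower for 3, and the median log2 fold change of the 10 genes was 0.80, beside 0.11 over all probes. At an unadjusted limma p under 0.05, 7 of the 10 genes were higher and 0 lower, beside 12.9% and 4.28% of all probes. In 4 genes, the 3 called ones and Vcan, the lowest MI mouse exceeded the highest sham-operated mouse, which was so for 7.61% of all probes. As the genes were chosen with earlier results known, these comparisons with all probes are descriptions with no test.

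**Figure D1:**
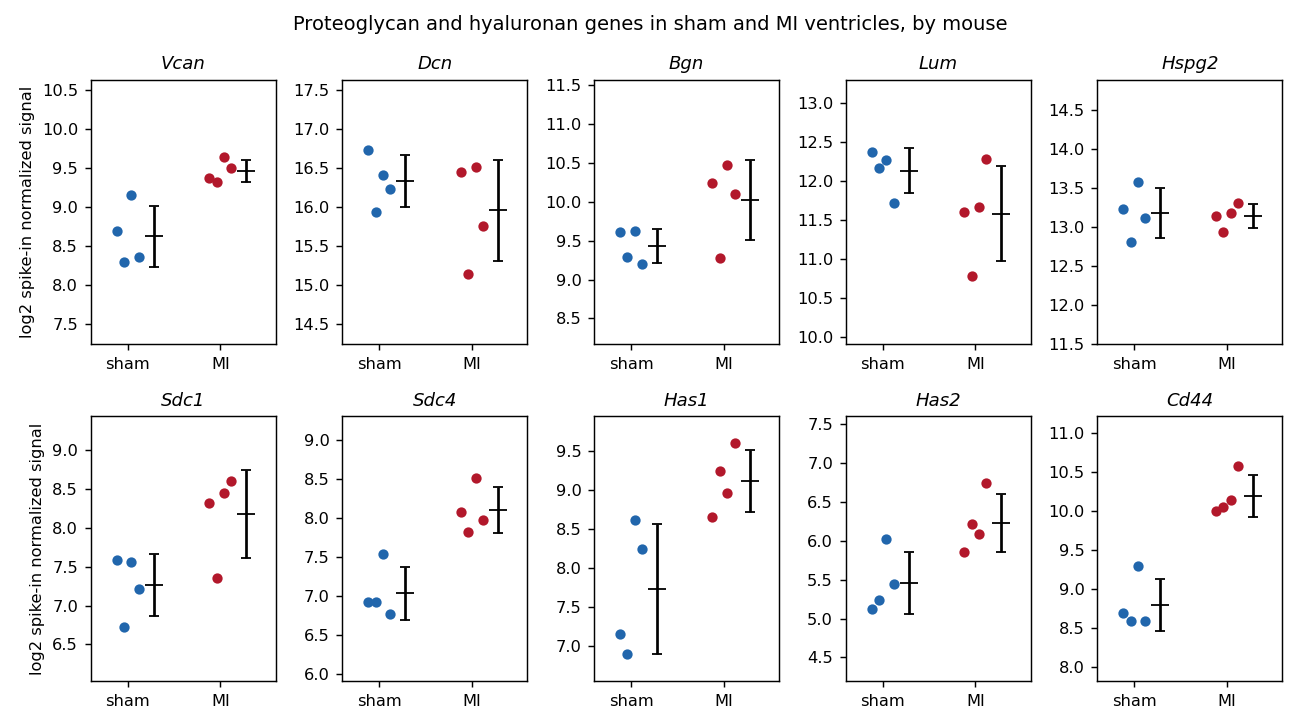
Log2 spike-in normalized signal (vertical axes, each spanning the same range) of the 10 genes in sham-operated mice (blue) and MI mice (red), 1 point per mouse, with the mean and SD of 4 mice beside each group. The groups are apart in Cd44, Has1, Sdc4 and Vcan and overlap in the other 6 genes.

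Cd44, the hyaluronan receptor, read 415, 385, 628 and 386 in sham-operated mice 1 to 4, and 1027, 1059, 1130 and 1534 in MI mice 1 to 4. The groups did not overlap, and the highest sham-operated mouse was mouse 3. The mean log2 signal rose by 1.40 (SE 0.24, n = 4 and 4), or 2.64-fold, with a limma adjusted p of 0.00170 and an exact permutation p of 0.0286. The arrays lay in 2 rows of 1 slide, both groups having 2 arrays in either row, and the difference was 1.38 within the first row and 1.42 within the second. Cd44 was called in 21 of 21 alternative fits.

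Cd44 was also read by other probes of the same RefSeq transcript (NM_009851). The second probe read 267, 173, 305 and 254 in sham-operated mice and 833, 1106, 1306 and 1088 in MI mice, a rise of 2.13 (SE 0.25) on the log2 scale with a limma adjusted p of 3.49e-05. Both probes separated the groups, and the size of the difference was not the same in them. The log2 ratio of the brightest to the second probe was 0.73 units apart between groups, lower in every MI mouse than in any sham-operated mouse (exact permutation p = 0.0286, adjusted p = 0.0857 over 3 probe pairs). The third probe cleared background in 4 MI mice but in 0 of the sham-operated group, so that only a bound can be given: it was at least 3.39-fold higher in MI mice. It passed the filter on dim probes through the MI mice alone, so it had to differ and is a description with no test.

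The promoter of Cd44 is shown because Cd44 was called in all 21 of the alternative fits with a test. It gives the 250 bases before the start in RefSeq (chr2:102901666-102901915, minus strand, GRCm38.p6), 5′ to 3′, with no capitals because none of the 5 motifs searched was found in it:
Cd44 promoter: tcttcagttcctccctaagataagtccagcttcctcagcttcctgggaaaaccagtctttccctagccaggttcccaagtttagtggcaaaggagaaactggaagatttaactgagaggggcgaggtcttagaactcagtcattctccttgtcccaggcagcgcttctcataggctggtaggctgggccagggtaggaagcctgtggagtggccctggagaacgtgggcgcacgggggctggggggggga

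Hyaluronan synthases differed in how clearly the groups stood apart. Has1 read 142, 119, 394 and 304 in sham-operated mice and 403, 609, 501 and 777 in MI mice. The lowest MI mouse, at 403, was close to the highest sham-operated mouse, at 394, and sham-operated mice 1 and 2 were well under mice 3 and 4. The mean log2 signal rose by 1.39 (SE 0.35), or 2.62-fold, with a limma adjusted p of 0.0257 and an exact permutation p of 0.0286. The difference was 1.93 within the first row of the slide and 0.85 within the second. The call was lost without MI mouse 2 (limma adjusted p = 0.0797), without sham-operated mouse 1 (0.0572) or without sham-operated mouse 2 (0.0825), and also when arrays were scaled to their 75th percentile (0.0571). With a vsn model fitted to the spike-in spots the difference was 0.83 and was not called (0.0923).

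The Has1 promoter is shown because it held a letter-for-letter match to the cyclic AMP response element, TGACGTCA, which 1.55% of 32851 promoters of the same length held. The match began 83 bases before the start. The 30 bases around it (chr17:17855253-17855282, minus strand, GRCm38.p6) read as follows, with the match in capitals:
Has1 stretch: cagacttgtccTGACGTCAgccctcctcca

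Has2, the synthase needed for heart development, read 35, 38, 65 and 43 in sham-operated mice and 58, 74, 68 and 107 in MI mice. Sham-operated mouse 3 lay above the lowest MI mouse, so the groups overlapped. The log2 difference was 0.77 (SE 0.26), with a limma adjusted p of 0.117 and an exact permutation p of 0.0571. Has2 was called in 0 of 21 alternative fits, and its adjusted p over them ran from 0.0583 to 0.685. The log2 ratio of Has1 to Has2 was 0.62 higher in MI mice, with overlapping ranges of 2.79 to 3.04 (MI) and 1.66 to 2.81 (sham).

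Of the membrane syndecans, Sdc4, a co-receptor at focal adhesions, read 121, 121, 186 and 109 in sham-operated mice and 271, 226, 366 and 251 in MI mice. Every MI mouse was above every sham-operated mouse. The rise was 1.06 (SE 0.25) on the log2 scale, or 2.09-fold, with a limma adjusted p of 0.0163 and an exact permutation p of 0.0286. It was 1.03 within the first row and 1.09 within the second. The call was lost without MI mouse 3 (limma adjusted p = 0.0593) or without sham-operated mouse 4 (0.0655). It was also lost without a filter on dim probes (limma adjusted p = 0.0710) and with the methods' t-test (adjusted p = 0.0942). With the vsn model fitted to the spike-in spots, the rise was 0.51 and was still called (limma adjusted p = 0.0418).

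Sdc1, the syndecan of epithelial and plasma cells, read 191, 105, 188 and 148 in sham-operated mice and 320, 163, 348 and 387 in MI mice. MI mouse 2 lay within the sham-operated range, and the other 3 MI mice lay above it. The difference was 0.91 (SE 0.29), with a limma adjusted p of 0.0911 and an exact permutation p of 0.0857. Without MI mouse 2 it was 1.19 and was called (limma adjusted p = 0.0147), in 1 of 8 fits that left out 1 mouse. The median log2 fold change of all probes also rose without this mouse, from 0.11 to 0.25. As a log2 ratio, Sdc4 to Sdc1 differed by 0.15 between groups, and the groups overlapped.

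The Sdc4 promoter is shown because, of the 7 genes with a promoter in the table, it was the one that held a match to an NF-kB motif (GGGNNTTCC on either strand, in 4.98% of promoters), beginning 81 bases before the start. It also held 4 GC boxes (GGGCGG, in 32.7% of promoters), which 5 of the 7 genes had, and the GC box nearest the NF-kB match directly follows it. The 250 bases before the start (chr2:164443189-164443438, minus strand, GRCm38.p6) are given with the NF-kB match and the GC boxes in capitals:
Sdc4 promoter: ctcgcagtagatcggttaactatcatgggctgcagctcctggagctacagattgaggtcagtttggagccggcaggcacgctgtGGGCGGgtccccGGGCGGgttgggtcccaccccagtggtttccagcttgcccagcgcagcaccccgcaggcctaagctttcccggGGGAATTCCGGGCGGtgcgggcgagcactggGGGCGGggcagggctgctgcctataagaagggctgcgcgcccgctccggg

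The other 2 motifs searched on both strands were the TATA box (TATAAA, in 12.4% of promoters) and the AP-1 site (TGANTCA, in 6.75%), and 0 of the 7 genes held an AP-1 match. The motifs were chosen after the promoters had been seen, and a match is a description of letters. Dcn, Lum and Has2 are not in the table.

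Versican read 415, 315, 569 and 328 in sham-operated mice and 663, 639, 797 and 728 in MI mice. The groups did not overlap, and sham-operated mouse 3 was again the highest of its group. The log2 difference was 0.83 (SE 0.24), or 1.78-fold, with an exact permutation p of 0.0286, but the limma adjusted p of 0.0571 missed the threshold. Vcan was called in 9 of 21 alternative fits. A second probe, on another transcript (NM_172955 in place of NM_001081249), read 277, 170, 268 and 206 in sham-operated mice and 400, 207, 463 and 269 in MI mice, with overlapping groups and a difference of 0.50 (SE 0.28, limma adjusted p = 0.403). Between the 2 probes the log2 ratio differed by 0.33 between groups (exact permutation p = 0.257).

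Perlecan read 9643, 7155, 12275 and 8854 in sham-operated mice and 9014, 7875, 9292 and 10156 in MI mice. The groups overlapped and the log2 difference was -0.04 (SE 0.23, limma adjusted p = 0.961). A dimmer probe of the same transcript read 227, 102, 180 and 151 in sham-operated mice and 310, 183, 341 and 289 in MI mice, a difference of 0.78 (SE 0.28, limma adjusted p = 0.136). The log2 ratio of the brighter to the dimmer probe was 0.83 units lower in MI mice, with an exact permutation p of 0.0571 and overlapping groups, so the direction for Hspg2 was not settled between the probes.

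**Figure D2:**
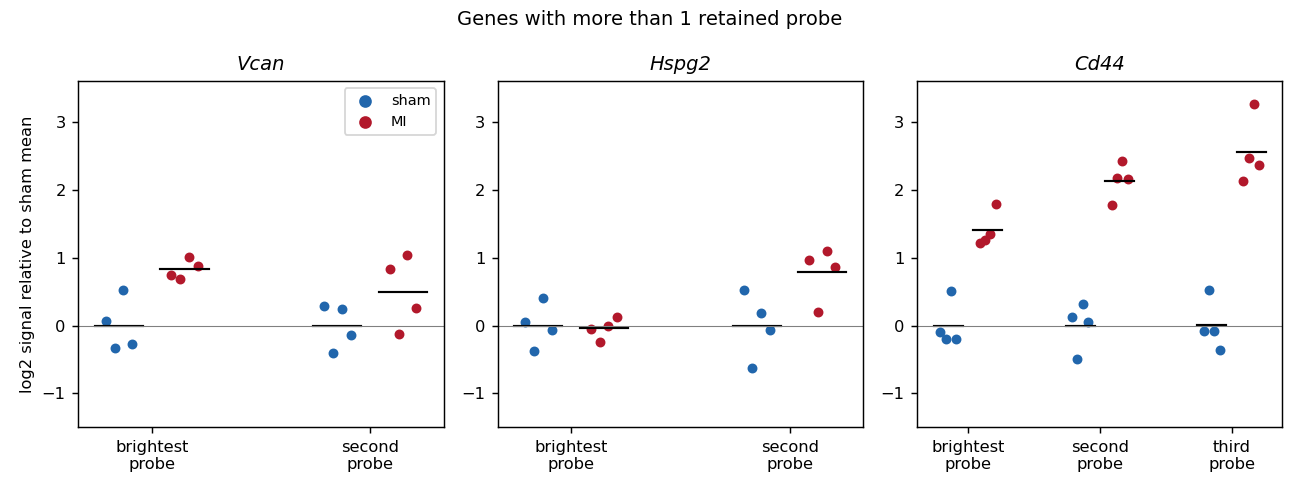
Log2 signal relative to the sham mean (vertical axis) for each retained probe of Vcan, Hspg2 and Cd44, with 4 sham-operated mice (blue), 4 MI mice (red) and the group mean as a line. The second Cd44 probe differs more than the brightest, and the third is not well above background in any sham-operated mouse, so its sham points have no order.

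Of the small leucine-rich proteoglycans, 0 were called. Biglycan read 783, 628, 789 and 587 in sham-operated mice and 1211, 623, 1421 and 1094 in MI mice, so that 3 MI mice lay above all sham-operated mice and MI mouse 2 lay within them. The difference was 0.59 (SE 0.27, limma adjusted p = 0.266, exact permutation p = 0.114). Without MI mouse 2 it was 0.84 and was called (limma adjusted p = 0.0339), in 1 of 8 fits that left out 1 mouse. The median log2 fold change of all probes also rose without this mouse, from 0.11 to 0.25.

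Decorin read 109496, 62910, 87285 and 76752 in sham-operated mice and 89402, 35973, 93374 and 55223 in MI mice. Its groups overlapped, with a difference of -0.37 (SE 0.30, limma adjusted p = 0.611). Lumican read 5318, 4608, 4957 and 3370 in sham-operated mice and 3114, 1763, 3246 and 4984 in MI mice. MI mouse 4 lay within the sham-operated range and the other 3 MI mice below it. The difference was -0.55 (SE 0.29, limma adjusted p = 0.363), and it was -1.08 within the first row of the slide and -0.02 within the second.

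Relative to each other, the 3 genes did not differ alike. The log2 ratio of Bgn to Dcn was 0.96 higher in MI mice, with ranges of -6.21 to -5.66 (MI) and -7.13 to -6.65 (sham). The log2 ratio of Bgn to Lum was 1.14 higher, from -2.19 to -1.19 against -2.88 to -2.52, and that of Dcn to Lum was 0.18 higher with overlapping groups. The ratio of Vcan to Hspg2, as read by their brightest probes, was 0.87 higher in MI mice without overlap. A ratio within an array shows unequal change and does not say which gene changed. The 6 gene pairs compared were chosen after the values had been seen, so their ratios are descriptions with no test.

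**Figure D3:**
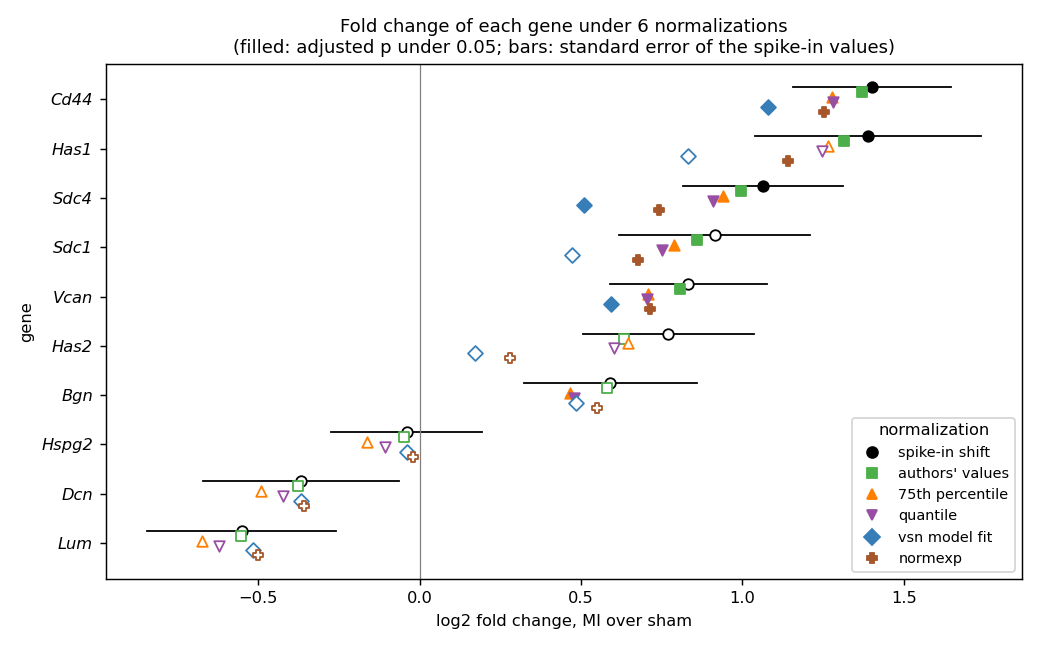
Log2 fold change (horizontal axis, MI over sham) of the 10 genes under 6 normalizations (symbols, filled where the adjusted p is under 0.05), with the SE of the spike-in values as bars. Cd44 and Sdc4 are filled under all 6, Has1 under 3, and Dcn, Lum, Hspg2 and Has2 under none. Under normexp the 10 genes have the same SE, so the spread of a gene among mice does not enter its adjusted p.

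The same mice were often the highest or lowest of their group. MI mouse 2 was the lowest of its group in 7 of 10 genes and MI mouse 4 the highest in 6. Sham-operated mouse 3 was the highest in 7 and sham-operated mouse 2 the lowest in 6. The median log2 signal of all retained probes was also lowest in MI mouse 2 and sham-operated mouse 2, 0.43 and 0.47 under the median of the arrays, and the part of this in the order of the 10 genes was not tested. Within a group, arrays correlated at 0.988 or more.

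Among the lists of cell type markers, that of neutrophils had the largest median log2 fold change, 3.03. Neutrophil markers were higher, 4 of 5 called, their summed signal being 197891 to 295610 after MI against 61257 to 77886 after sham surgery, and the calcium-binding alarmin S100a8 rose by 3.03 and the chemokine receptor Cxcr2 by 3.69 on the log2 scale. Of the monocyte and macrophage markers 2 of 7 were called higher, the endotoxin co-receptor Cd14 by 2.27 and the chemokine receptor Ccr2 by 1.23. The other 5 were not called, and of these Csf1r and Adgre1 differed the other way, by -0.16 and -0.24. The summed signals of the 7, 16692 to 23864 after MI and 12426 to 19085 after sham surgery, overlapped. The sum of any marker list follows its brightest probes more than its cell type. In MI mouse 1, for example, Csf1r gave 9778 of the 18103 of this list. Cd44 is made by leukocytes, and the part of these cells in its rise was not tested.

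Fibroblasts make much of the versican, decorin, biglycan and lumican of the heart. Of the 7 fibroblast markers 0 were called. Their summed signals, 9694 to 25864 after MI and 17374 to 30544 after sham surgery, overlapped. The collagen genes Col1a1 and Col3a1 differed by -0.57 and -0.75. Means were higher in MI mice for 2 of the 7, Tcf21 by 0.42 and Ddr2 by 0.12. MI mouse 2 was the lowest MI mouse in the fibroblast sum, as it was in Dcn, Bgn and Lum. It was also the lowest MI mouse in the endothelial, mesothelial, cardiomyocyte, and monocyte and macrophage sums. In the neutrophil and smooth muscle sums it was not the lowest. The median log2 signal of all its retained probes was 0.43 under the median of the arrays. None of the 7 endothelial, 5 mesothelial or 9 cardiomyocyte markers was called, and all 9 cardiomyocyte markers cleared background in every mouse. Of 4 smooth muscle markers 1 was called, the actin gene Acta2, higher by 1.47. Among the uncalled ones Myh11 and Tagln differed the other way, by -0.30 and -0.07. The part of these cells in the results was not tested.

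The other genes of the pathway were taken from 6 lists with 116 genes, of which 100 were tested. Of these 8 were called higher and 2 lower, with a median log2 fold change of 0.18, so that 8.0% were higher beside 4.73% of all probes. The split depended on the scaling: it was 14 higher and 13 lower with 75th percentile scaling, 13 and 12 with quantile normalization, and 7 and 0 with the vsn model. The counts of single lists below are small, and no list was tested as a set. They are to be read beside the shares of all probes, 4.73% called higher and 0.729% called lower.

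Proteoglycan-cleaving enzymes held the largest differences of these 10 called genes. In the list of cleavage and chain breakdown 3 of 21 genes were called higher and 0 lower. All 3 were secreted proteases of the Adamts family that cut hyaluronan-binding proteoglycans. Adamts5, of the same family, was lower in every MI mouse than in any sham-operated mouse. Its difference of -0.98 (SE 0.31) was not called (limma adjusted p = 0.0791). Adamts4 read 155, 86, 311 and 232 in sham-operated mice and 953, 1387, 1807 and 1554 in MI mice, a rise of 2.98 (SE 0.34, limma adjusted p = 3.23e-05). Adamts1 read 2383, 2185, 4793 and 3193 in sham-operated mice and 5316, 8215, 8772 and 7021 in MI mice, a rise of 1.27 (SE 0.28). Its call was lost without a filter on dim probes (limma adjusted p = 0.0644) and with the methods' t-test (0.123). Adamts8 read 133, 158, 211 and 78 in sham-operated mice and 1680, 2327, 605 and 323 in MI mice, a rise of 2.78 (SE 0.49) that was 3.77 within the first row of the slide and 1.78 within the second. With the vsn model Adamts8 differed by 1.78 and was not called (limma adjusted p = 0.0778). The MI mice of the second row were thus the lower ones for Adamts8, but all MI mice were above all sham-operated mice.

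In the list of hyaluronan synthesis, binding and breakdown 2 of 18 genes were higher and 1 lower. Ugdh, which makes the UDP-glucuronate used for hyaluronan and for sulfated chains, rose by 0.90 (SE 0.24, limma adjusted p = 0.0331). That call remained in 2 of 8 fits that left out 1 mouse. Ptx3, a pentraxin that takes part in hyaluronan-rich matrix, read 201, 166, 268 and 136 in sham-operated mice and 475, 609, 933 and 523 in MI mice and rose by 1.71 (SE 0.28). Stab2, a scavenger receptor for hyaluronan, read 115, 56, 94 and 106 in sham-operated mice and 43, 29, 38 and 46 in MI mice and fell by 1.23 on the log2 scale (SE 0.27, limma adjusted p = 0.00983). With the vsn model Stab2 differed by -0.28 and was not called (limma adjusted p = 0.135), and the call was also lost without a filter on dim probes (0.0581) and with the methods' t-test (0.107).

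In the list of cell-surface and basement-membrane proteoglycans 1 of 13 was called higher and 12 were not called. The called gene was Srgn (serglycin), the granule proteoglycan of blood cells, which is of neither kind. So no cell-surface or basement-membrane proteoglycan of this list was called. Srgn read 6306, 5824, 9042 and 5805 in sham-operated mice and 19657, 26482, 27363 and 25633 in MI mice. Its rise was 1.89 (SE 0.24, limma adjusted p = 7.43e-05). Of the other small leucine-rich proteoglycans 1 of 9, osteomodulin (Omd), fell by 1.30 on the log2 scale (SE 0.31, limma adjusted p = 0.0180), and 0 were higher. With the vsn model Omd differed by -0.50 and was not called (limma adjusted p = 0.0651), and the call was also lost without a filter on dim probes (0.105), with significance analysis of microarrays (0.05002) and with the methods' t-test (0.196). In glycosaminoglycan chain synthesis 2 of 37 genes were higher: Chst11, a chondroitin sulfotransferase, by 1.39 (SE 0.26), and Hs6st1, a heparan sulfate sulfotransferase, by 1.08 (SE 0.28), the latter called in 4 of 8 fits without 1 mouse and not with the vsn model (limma adjusted p = 0.0683). Of the hyalectans and link proteins 2 of 7 were tested and 0 called, and the larger difference was 0.22 (SE 0.30), for Acan (aggrecan).

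**Figure D4:**
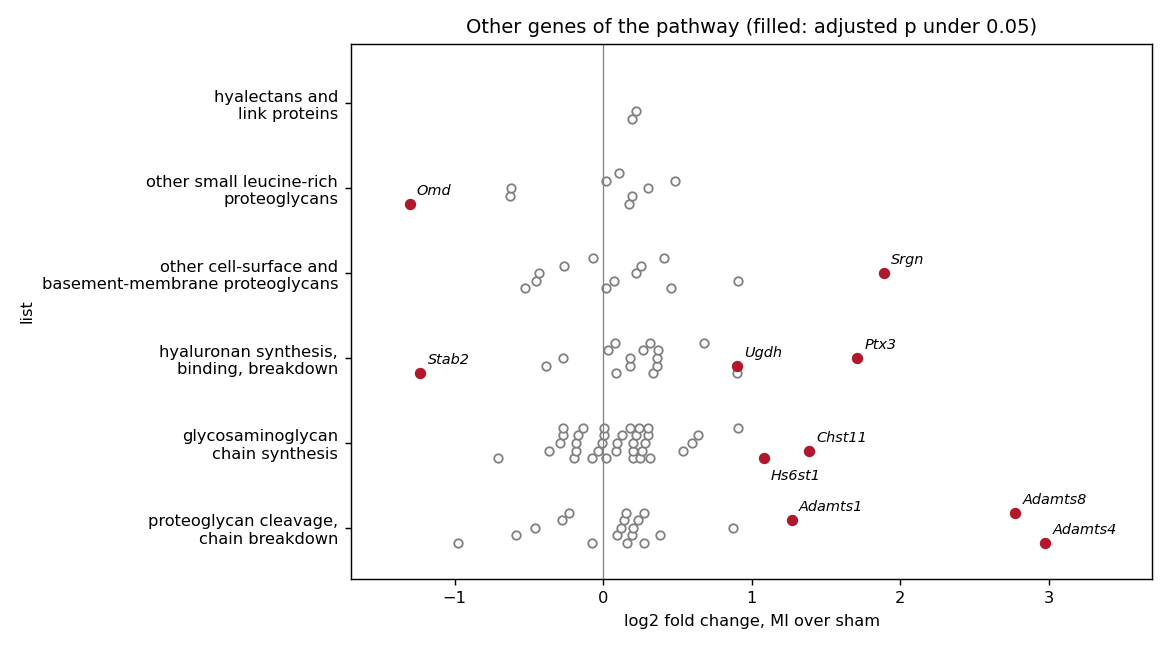
Log2 fold change (horizontal axis, MI over sham) of the 100 tested genes of 6 pathway lists, 1 point per gene, filled and named where the adjusted p is under 0.05. Most genes lie near 0, and Adamts4 and Adamts8 lie farthest to the right.

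For the 3 genes with the largest differences, the genes whose values over the 8 mice were most like theirs were sought among 14026 genes whose probe cleared background in every mouse, by the root-mean-square (RMS) difference of log2 values relative to the sham mean. The nearest to Cd44 were Pik3cg (RMS 0.11), Ncf4 (0.13) and Marcksl1 (0.14). The likeness of Pik3cg did not hold in all normalizations: its log2 fold change was 0.19 with the vsn model and 0.37 with normexp, where Cd44 had 1.08 and 1.25. It was nearer to Cd44 with 75th percentile scaling (1.28 for both), quantile normalization (1.21 against 1.28) and the authors' values (1.03 against 1.37). The nearest to Has1 were Myc (0.21), Egr2 (0.28) and Atf3 (0.28), farther off than for the other two. The nearest to Sdc4 were Emp1, Fcrlb and Casq1, each at 0.14. Fcrlb differed by 0.18 with the vsn model and 0.34 with normexp, where Sdc4 had 0.51 and 0.74. It was nearer to Sdc4 with 75th percentile scaling (0.82 against 0.94), quantile normalization (0.78 against 0.91) and the authors' values (0.76 against 1.00).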

How the data were processed

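Ventricular RNA of 8 mice was hybridized to 8 one-colour Agilent arrays on 1 slide. The intensities, per the file headers, are Feature Extraction signals with background subtracted and spatial trends removed, and no normalization between arrays. The authors' deposited log2 values were normalized on spike-in probes with limma and vsn and served as an alternative.

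Outlier-flagged and control spots were left out, spots of a probe were averaged, and log2 signals were shifted by the mean of 7 spike-in probes well above background on all arrays, of 10. Probes well above background on 4 of 8 arrays were kept (34038 of 55681). Probes were named through RefSeq transcripts (GRCm38), and promoters came from RefSeq. Groups were compared with limma 3.58.1 in R 4.3.3, over all kept probes, with exact permutation tests for single genes (scipy 1.17.1). The numbers of the mice were not used as pairs. Same-numbered deviations correlated at -0.07 to 0.20, and those of unlike number at -0.26 to 0.33. Labels do not say more of how mice were allocated than their group, and 8 arrays limit the precision. No additive constant was used, a choice made knowing that an earlier fit of the vsn model to these spike-in spots had given large constants, which shrink the folds of dim probes.

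Alternatives were 75th percentile, quantile and vsn-model normalization, the authors' values, normexp (offset 50, on median spot signals in place of the mean), missing dim spots, other filters, significance analysis of microarrays, the methods' t-test, replicate number or array row as a block, the mean over probes, and leaving out each mouse. In tests on simulated data the vsn fit recovered the array scales, but not always the additive constant shared by all arrays, so its folds for dim probes are uncertain. The normexp fit gave the genes named here the same SE (0.209). The spread of a gene among mice thus did not enter its p-value there, and calls with normexp are to be read with this limit.

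Members and lists were chosen with earlier results of these data known. Named were all 10 members and called pathway genes (at most 4 in each direction per list, or the largest difference where none was called). Also named were 3 like genes for each of 3 members and at most 2 genes per marker list. Adamts5, and markers that differed in the other direction from those named of their list, were named in addition.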

Additional observations from a re-analysis of the deposited data

Results flagged for a closer look

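In Cd44, sham-operated mouse 3 stood apart from the other 3 sham-operated mice, with a log2 signal of 9.29 against 8.59 to 8.70. The gap was 0.845 of the range of the group. Of 20 groups of 4 mice examined (10 genes in 2 groups) 1 stood apart in this way, and chance alone marks about 1 in 20. Without this mouse the log2 fold change of Cd44 was 1.57.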

How the results depend on the processing

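Of the called genes, Cd44 was called in 21 of 21 alternatives with a test, Sdc4 in 17 and Has1 in 12, all with a rise. Of the uncalled ones Vcan was called in 9, Sdc1 in 7 and Bgn in 3, and Dcn, Lum, Hspg2 and Has2 in 0. Has1 was lost with limma under the vsn model (adjusted p = 0.0923), quantile normalization (0.0578) and no filter (0.145), and also with significance analysis of microarrays (0.0613) and the methods' t-test after Benjamini-Hochberg adjustment (0.254). Called at more than 2-fold were 2 of the 10 genes with the authors' values and with normexp. Only 1 was with 75th percentile scaling, quantile normalization or the vsn model. Sdc4 was under 2-fold in each of these, with a log2 rise of 0.996 with the authors' values and 0.508 with the vsn model. The sign of Hspg2 turned within the first array row (0.0205) and in the mean over its probes (0.372), and leaving out 1 mouse gave -0.167 to 0.0925, positive without MI mouse 2 (0.0260) or sham-operated mouse 3.

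The count of the 10 genes called was 5 with 75th percentile scaling, quantile normalization, the authors' values, normexp and the filter for all arrays, and 1 without a filter and with the methods' t-test. Leaving out 1 mouse gave 2 to 4. For all probes the count was 1857, and it was 5947 with 75th percentile scaling, 6173 with quantile normalization, 1008 without a filter and 742 with the t-test. Leaving out 1 mouse gave 1343 to 2254. Of the calls 86.6% were higher in MI mice, but 51.4% with 75th percentile scaling and 50.4% with quantile normalization, which moved the median log2 fold change of all probes from 0.11 to -0.01 and -0.03. Pathway calls were 10, and 27, 25, 5 and 2 under the same 4 settings, and 8 to 12 without 1 mouse. The cause of these shifts was not tested.

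With the replicate number as a replicate block, 5 of the 10 genes, 4307 probes and 22 pathway genes were called. The labels give same-numbered mice nothing in common but the number, so this does not measure pairing. In both groups mouse 3 had the highest and mouse 2 the lowest median log2 signal of all retained probes. Whether the number marks anything shared was not tested.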
